A study of Mus musculus with 70 samples.

Results

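Galanin, neurotensin and PACAP (pituitary adenylate cyclase-activating polypeptide) are neuropeptides, short signalling proteins that neurons cut from longer precursors and release onto receptors coupled to G proteins. Described here are 9 genes of these systems in mouse brain, taken by name from the gene-level expression table, which holds 34677 genes. The ligand genes are Gal, Nts, Adcyap1 (the PACAP precursor) and Vip, whose product vasoactive intestinal peptide is a close relative of PACAP. The receptor genes are Galr1 for galanin, Ntsr1 and Ntsr2 for neurotensin, Adcyap1r1 for PACAP (the PAC1 receptor), and Vipr2 (the VPAC2 receptor) for VIP and PACAP alike. All 9 were found in the table and all 9 passed the filter on low counts.

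In the hypothalamus, galanin is made by several groups of neurons linked to feeding and hormone release, and its receptor Galr1 lowers cyclic AMP. Neurotensin is made by neurons of the lateral hypothalamus and striatum, and Ntsr1 is known from dopamine neurons of the midbrain, whereas Ntsr2 is mainly a receptor of astrocytes. PACAP is a marker of excitatory ventromedial hypothalamic neurons, and VIP marks a class of cortical inhibitory interneurons and neurons of the suprachiasmatic nucleus, the circadian clock. PAC1, VPAC1 and VPAC2 raise cyclic AMP.

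RNA was measured in 70 libraries from 24 groups, to map gene expression over brain regions that control energy balance. Punches of frozen sections from male adults at postnatal day 56 gave 57 libraries of 18 regions, and embryos at E14.5 gave 9 libraries of 4 regions, with no treatment in any adult or embryonic group. Adults and embryos were C57BL/6 mice, of the substrain C57BL/6NTac by the methods. Cultured C57BL/6 mouse embryonic stem cells (mESC) of 2 lines, each a clone named B6-1 or B6-2, gave 4 libraries. By the methods, mESC were grown before collection in medium with leukemia inhibitory factor and added inhibitors. Each brain library pooled tissue from several mice, apart from 1 library of the nucleus accumbens, so the spread between libraries is a spread between pools. Regions were punched from the same adult mice, so libraries of different regions share animals, whereas the tests treat all libraries as independent.

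The adult regions were 5 hypothalamic nuclei, namely the arcuate (ARH), dorsomedial (DMH), lateral (LHA), paraventricular (PVH) and ventromedial (VMH) nuclei. The cortex was sampled in the anterior cingulate area (ACA), frontal pole (FRP) and entorhinal area (ENT). Hindbrain nuclei were the parabrachial nucleus (PB), the solitary tract nucleus (NTS in the plots) and the dorsal vagal complex (DVC). Cerebellar regions were central lobule II (CENT2), the culmen (CUL4-5), the uvula (UVU), the flocculus (FL) and the cerebellar nuclei (CBN). The nucleus accumbens (ACB) and ventral tegmental area (VTA) stood alone. Embryonic regions were the terminal and peduncular hypothalamus (THy-PHy), forebrain (F), midbrain (M) and hindbrain (H). Groups had 2 to 4 libraries, and F had 1.

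Total estimated counts per library ranged from 9074581 to 22229582. The summed markers of ARH, LHA, VTA, ACB, cortex and cerebellar cortex were highest in those regions, but other cell types move with some of the results. VMH libraries held the ventromedial marker Nr5a1 at 45.8 and 21.4 TPM (ARH 16.8 to 19.7 TPM), and also Hcrt at 659 and 939 TPM (the share of transcripts scaled by their length) and Pmch at 3454 and 3595 TPM, which are genes of lateral hypothalamic neurons. CBN and PB held the noradrenergic genes Dbh and Slc6a2, ARH held pituitary genes (summed over 6 genes, 76.1 to 117 TPM), and VTA replicate 1 had lower dopaminergic markers than the other VTA libraries (Th at 239 TPM against 778 and 901). The part of these cells in the results was not tested. In punches, fewer cells of a type and less RNA per cell cannot be told apart.

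Levels are given in TPM, which is scaled by transcript length, so genes can be compared. Differences between regions were tested on counts with edgeR in 1 fit of all libraries. Where several regions were compared, their fitted log2 levels were averaged with equal weight for each region. The SE and p reflect the spread of libraries within regions, and not the spread between the regions averaged. A gene was called where the adjusted p was under 0.05 and the log2 fold change was above 1 in size, and each called share of the members is set beside that of the 19980 genes tested.

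The ligand genes each had their own map. Gal lies on the minus strand of chromosome 19 (positions 3409915 to 3414544, GRCm38) and reached its highest mean in VMH. Nts lies on the minus strand of chromosome 10 (102481756 to 102490486) and was highest in LHA. Adcyap1 lies on the plus strand of chromosome 17 (93199017 to 93206537) and was highest in ARH. Vip lies on the plus strand of chromosome 10 (5639218 to 5647617) and was highest in ACA.

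**Figure D1:**
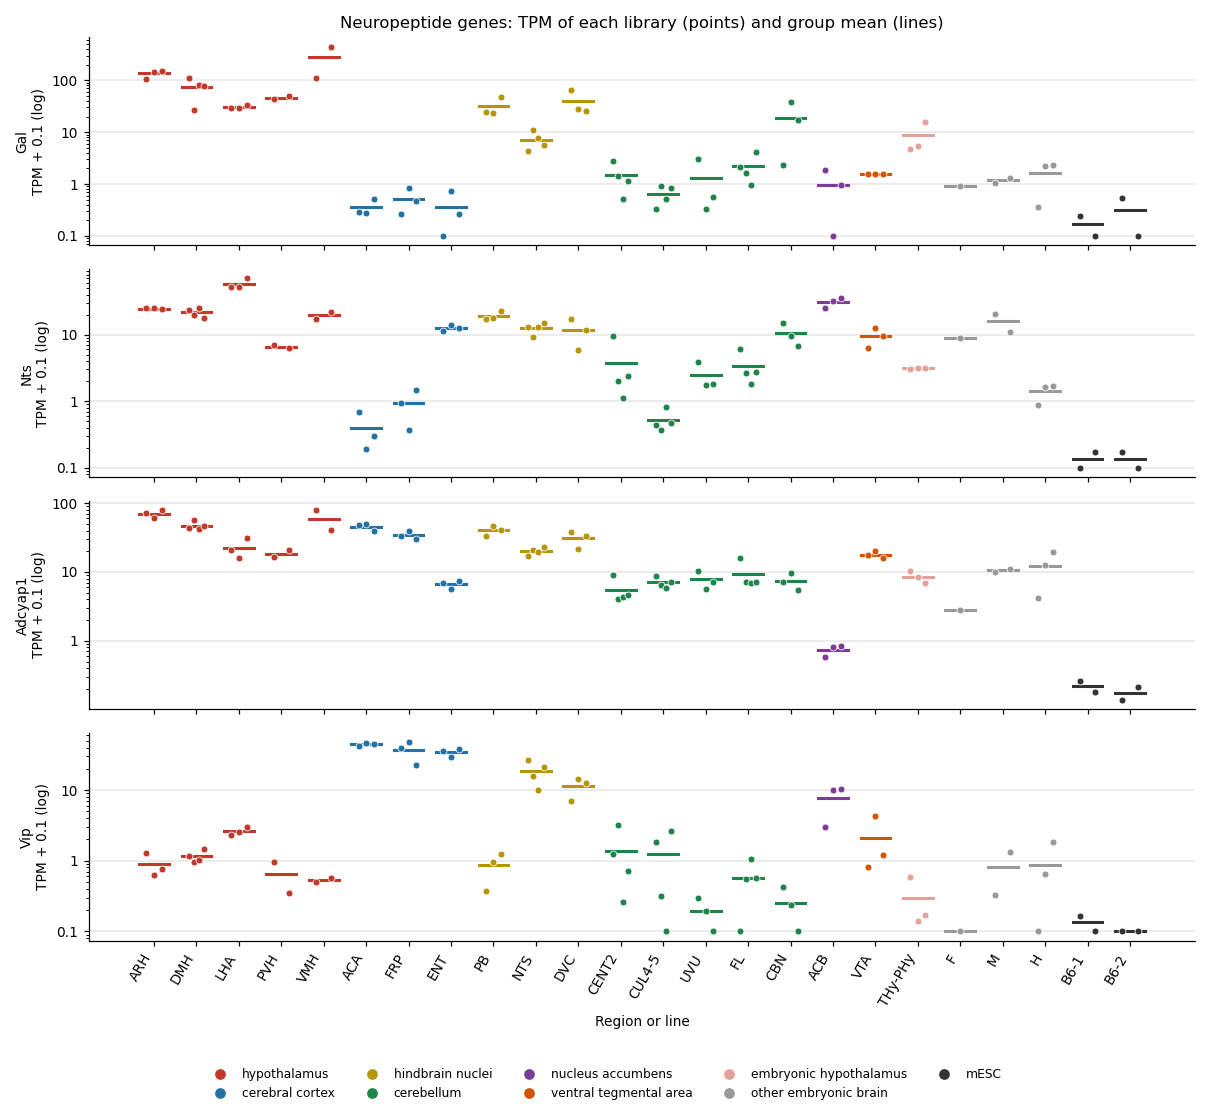
TPM of Gal, Nts, Adcyap1 and Vip in each of the 70 libraries (points) with the mean of each group (lines), on log axes after adding 0.1. In the cortex Gal is at 0.726 TPM or less in every library and Vip at 22.4 TPM or more.

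Gal, whose peptide galanin inhibits many of the neurons it reaches, ranged among the means of adult regions from 0.262 TPM in ACA, where its 3 libraries held 1, 1 and 2 estimated counts, to 280 TPM in VMH. In VMH its level was 113 and 446 TPM in the 2 libraries. In ARH it was 108, 148 and 154 TPM, in DMH 112, 26.8, 82.7 and 78.2 TPM, in PVH 42.9 and 48.8 TPM, and in LHA 29.8, 28.8 and 32.8 TPM. Outside the hypothalamus, the hindbrain nuclei and CBN, no adult library passed 4.14 TPM, so that hypothalamic levels stood far above the cortex, ACB, VTA and cerebellar cortex. They overlapped those of the hindbrain, where DVC replicate 1 had 64.1 TPM. Of the 23 pairs of neighbours in the order of group means, 21 overlapped in their libraries.

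The top place of VMH rested on 1 library. Replicate 2, with more Gal, had Nr5a1 at 21.4 TPM and Ghrh at 56.1 TPM, where replicate 1 had them at 45.8 and 12.9 TPM. VMH held 40.8% of the Gal TPM summed over the 24 group means, and 21.8% without replicate 2, when another group was highest.

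Nts was at 51.7, 52.7 and 69.9 TPM in LHA, above every other library of the series. The nucleus accumbens came next with 25.1, 31.6 and 35.3 TPM, and ARH had 24.9, 24.8 and 24.1 TPM. PVH stood low among the hypothalamic nuclei with 6.87 and 6.19 TPM. In the cortex the entorhinal area had 11.3, 13.8 and 12.5 TPM, whereas the libraries of ACA and FRP lay between 0.0914 and 1.38 TPM, so that ENT did not overlap the other cortical regions.

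Adcyap1 was spread more evenly, with a mean of at least 1 TPM in 17 of 18 adult regions. ARH had 71.6, 60.4 and 78.9 TPM, VMH 78.8 and 40.7 TPM, DMH 42.8, 56.2, 42.0 and 45.9 TPM, and ACA 47.7, 50.2 and 39.2 TPM. The exception was ACB, with 0.482, 0.703 and 0.728 TPM, below every other adult library, of which the lowest had 3.89 TPM. ENT also stood apart from the other cortical regions, with 6.90, 5.65 and 7.18 TPM against a lowest value of 29.7 TPM in ACA and FRP. Within VMH the library with more Nr5a1 had more Adcyap1 and less Gal.

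Vip was highest in the cortex and the caudal hindbrain nuclei. ACA had 42.6, 46.1 and 44.3 TPM, FRP 39.4, 47.8 and 22.4 TPM, and ENT 35.9, 29.6 and 37.9 TPM. The solitary tract nucleus had 26.4, 15.5, 9.99 and 21.2 TPM and DVC 6.88, 14.0 and 12.6 TPM, so that the former overlapped FRP alone among the cortical regions. ACB had 2.90, 10 and 10.3 TPM. No hypothalamic library passed 2.91 TPM, and no punch of the suprachiasmatic nucleus is among the groups.

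The receptors divided into 2 broadly expressed genes, Ntsr2 and Adcyap1r1, and 3 restricted ones. Ntsr2 had a mean of at least 62.9 TPM in every adult region, and Adcyap1r1 of at least 45.5 TPM. Galr1, Ntsr1 and Vipr2 reached highest means of 7.54, 34.5 and 9.08 TPM.

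**Figure D2:**
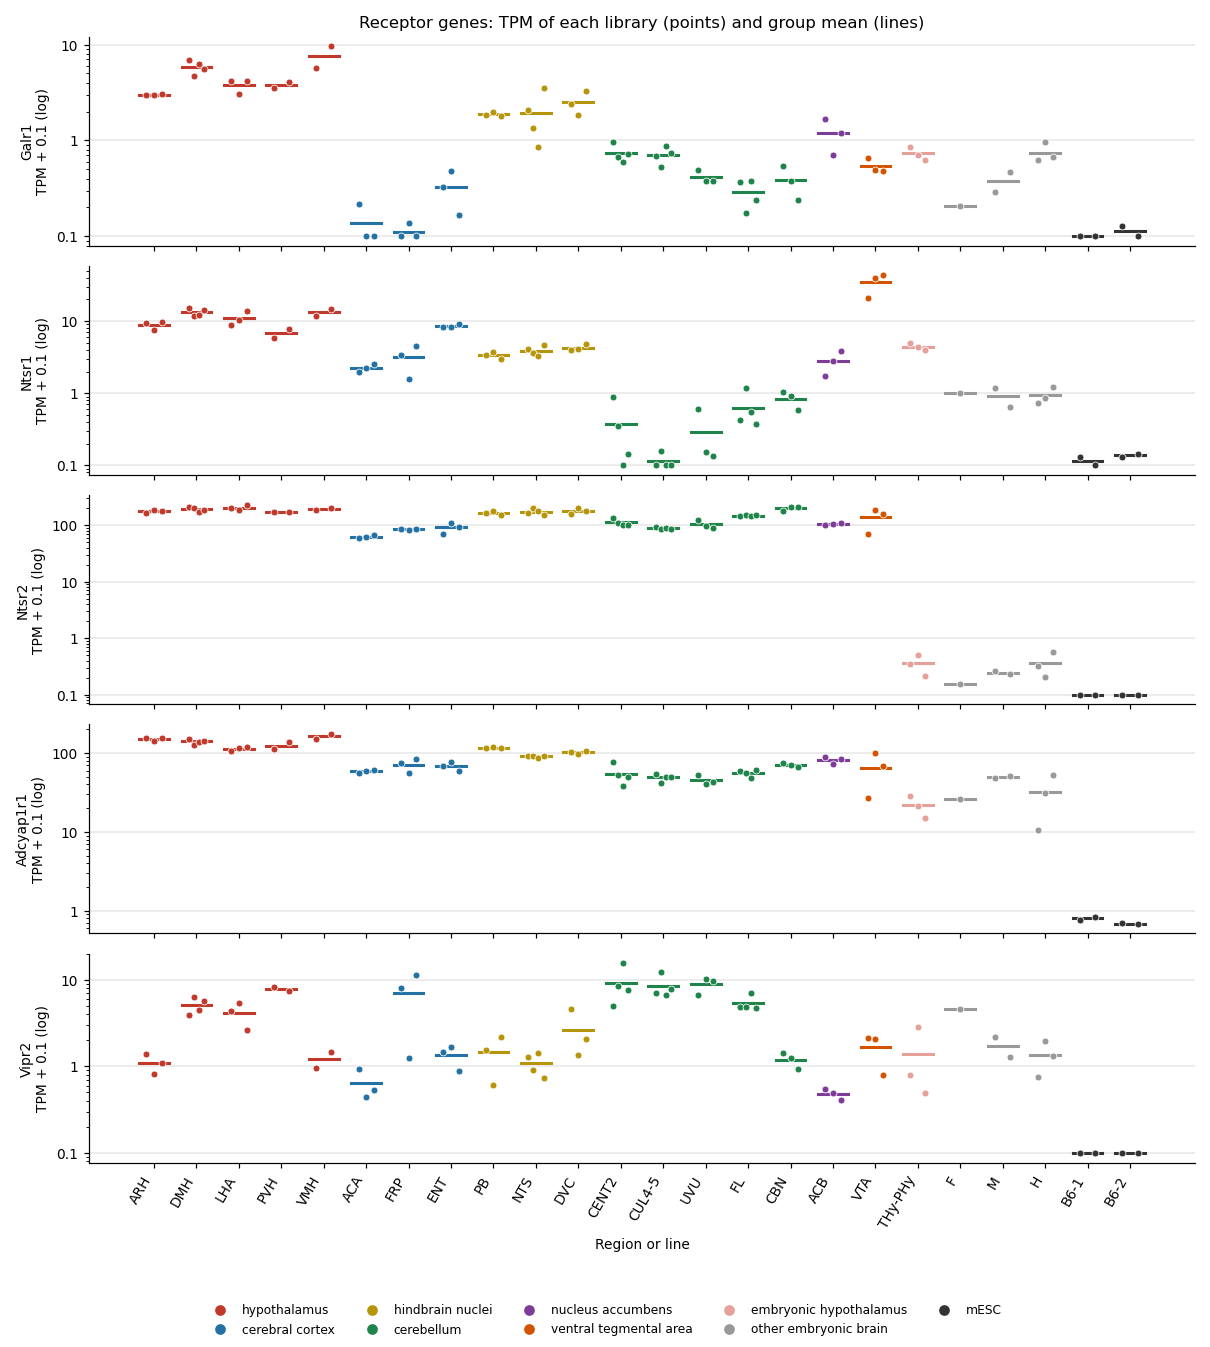
TPM of Galr1, Ntsr1, Ntsr2, Adcyap1r1 and Vipr2 in each of the 70 libraries (points) with the mean of each group (lines), on log axes after adding 0.1. Ntsr2 is at 59.9 TPM or more in every adult library and at 0.470 TPM or less in every embryonic one.

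Galr1 had 5.58 and 9.51 TPM in VMH and 6.80, 4.55, 6.23 and 5.41 TPM in DMH, and these libraries lay above all others of the series. As for Gal, the top place of VMH rested on replicate 2. Replicate 1 alone, at 5.58 TPM, lay below the DMH mean of 5.75 TPM. ARH, which had the second highest Gal, had less Galr1, at 2.86, 2.90 and 2.93 TPM. In the cortex Galr1 was nearly absent, with 20 estimated counts in all over 9 libraries and 4 libraries at 0.

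Ntsr1 was at 20.9, 39.4 and 43.0 TPM in VTA, above every other library. The lowest value was that of VTA replicate 1, in which 39.6% of TPM was mitochondrial. Hypothalamic libraries lay between 5.75 and 14.9 TPM and ENT had 8.24, 8.28 and 9.0 TPM. In CUL4-5 the level was 0, 0.0600, 0 and 0 TPM.

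Ntsr2 had its highest means in LHA (199, 185 and 232 TPM) and CBN (180, 213 and 210 TPM), and these regions overlapped each other and DMH. ACA was lowest, with 59.9, 61.5 and 67.2 TPM. Over the 18 adult regions the mean log2(TPM + 0.5) of Ntsr2 went with that of the astrocyte gene Gja1 (Pearson r = 0.79) and not with that of Slc1a3 (r = -0.33). For the astrocyte genes Aldh1l1, Gfap and Aqp4 the r was 0.47, 0.45 and 0.29, and for the oligodendrocyte gene Mog it was 0.70. Regions share depth and dissection, so these values are descriptions. The 5 astrocyte markers summed to 986 to 1218 TPM in libraries of the cerebellar cortex, more than in any other group, while Ntsr2 there was 86.3 to 149 TPM. The markers were not alike. In CENT2, CUL4-5, UVU and FL the means of Slc1a3 were 564, 710, 586 and 325 TPM, and in FL that of Gfap was 305 TPM. Gja1 means there were 195, 180, 169 and 201 TPM, against 178 to 211 TPM in the hypothalamic nuclei.

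Adcyap1r1 had 152 and 175 TPM in VMH, 156, 141 and 153 TPM in ARH and 151, 128, 139 and 143 TPM in DMH. The cerebellar cortex was at the low end with 37.9 to 77.5 TPM. VTA had 26.8, 98.7 and 67.6 TPM, the lowest again in replicate 1.

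Vipr2 had its own highest means in the cerebellar cortex, with 4.89, 8.33, 15.5 and 7.62 TPM in CENT2, 7.03, 12.3, 6.49 and 7.64 TPM in CUL4-5, and 6.64, 10.1 and 9.51 TPM in UVU. PVH had 8.26 and 7.27 TPM. FRP was split, with 8.0, 1.16 and 11.4 TPM. Replicate 3 of FRP also had Eomes at 21.9 TPM and Cdhr1 at 119 TPM, genes of the olfactory bulb that were looked up after the split was seen, whereas replicate 1 had them at 2.02 and 13.3 TPM, and replicate 2, where Vipr2 was low, at 3.58 and 13.7 TPM.

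In the hypothalamus as a whole, 5 of the 9 genes were called higher than in the other adult regions, where 5.98% of all genes were, and 1 was called lower, where 2.69% of all genes were. Gal was 5.19 ± 0.203 higher on the log2 scale (SE, 14 hypothalamic libraries against 43; adjusted p = 1.48e-31). The SE leaves out the spread between nuclei, whose Gal means ran from 30.5 TPM in LHA to 280 TPM in VMH. Galr1 was higher by 3.42 ± 0.147, Ntsr1 by 2.81 ± 0.128, Nts by 2.11 ± 0.144 and Adcyap1 by 1.63 ± 0.107. Vip was the gene called lower (log2 fold change -1.88 ± 0.422, adjusted p = 1.34e-04). Ntsr2, Adcyap1r1 and Vipr2 had log2 fold changes of 0.57, 0.92 and 0.48, short of the limit of 1.

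**Figure D3:**
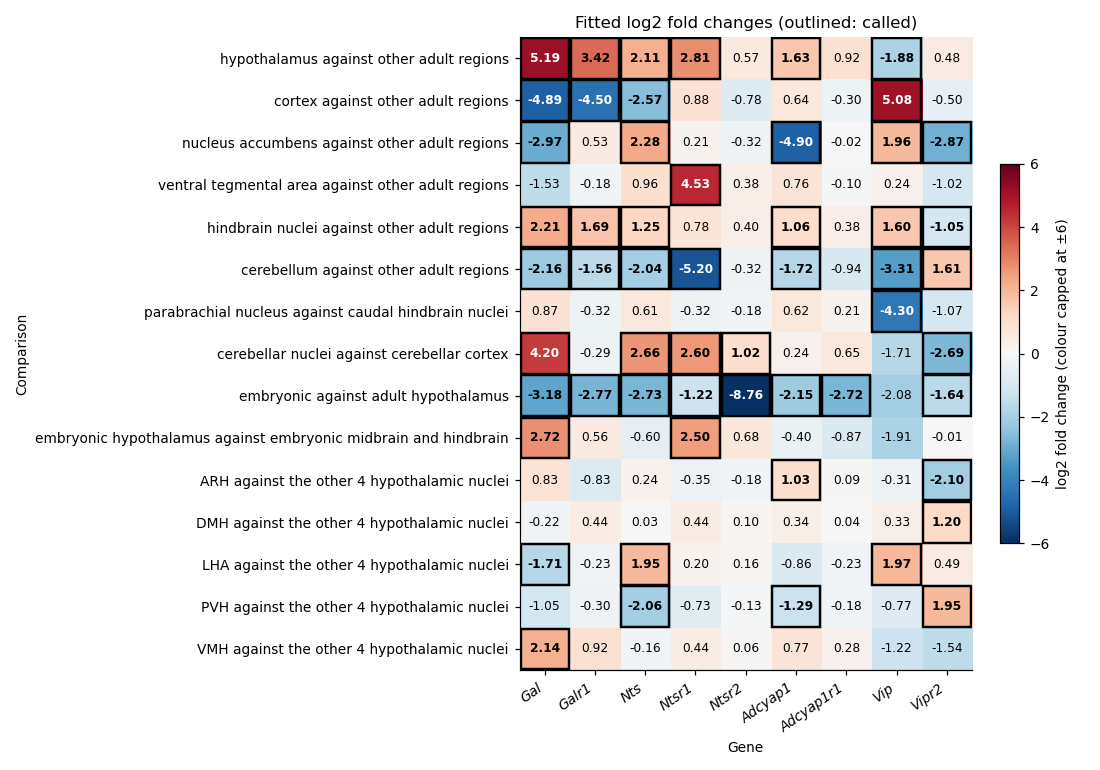
Fitted log2 fold changes of the 9 genes (columns) in 15 comparisons (rows), positive where the first group is higher, with called values outlined. Gal runs from 5.19 in the hypothalamus to -4.89 in the cortex, and Ntsr2 stays between -0.78 and 1.02 in the adult comparisons and falls to -8.76 in the embryonic hypothalamus.

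Within the hypothalamus, each nucleus was compared with the other 4, which gave 10 calls among 45 pairs of gene and nucleus. VMH had 1 gene called higher (1.31% of all genes were), namely Gal, by 2.14 ± 0.314 (adjusted p = 2.25e-06). That call was lost without VMH replicate 2, where the log2 fold change was 0.86, and in limma on log2(TPM + 0.5), where it was 1.91, and the value was 2.81 without VMH replicate 1. Within the 2 collection batches that held a VMH library, the Gal difference in mean log2(TPM + 0.5) was 3.34 and 0.03. Batches did not hold all nuclei, so these values are not the same comparison. The 0.03 came from 1 VMH library against 2 others, of ARH and DMH, with none of LHA or PVH. Galr1 was not called in VMH (0.92 ± 0.241), but was called at 1.16 (adjusted p = 0.00169 in edgeR) in a fit with a term for collection batch, which was chosen after seeing the data. Of all genes 261 were called higher in VMH and 146 lower, against 129 and 176 in DESeq2.

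ARH had 1 gene called higher (4.91% of all genes), Adcyap1 (1.03 ± 0.209, adjusted p = 1.07e-04), and 1 called lower (2.26%), Vipr2 (-2.10 ± 0.461, adjusted p = 3.87e-04). The Adcyap1 value lay at the limit and fell to 0.93 without VMH replicate 2, and the call was also lost without ARH replicate 3 or LHA replicate 2, at 1.00 without a filter on low counts and at 0.99 without the mESC libraries. In LHA, 2 genes were called higher (2.37% of all genes), Nts by 1.95 ± 0.222 (adjusted p = 6.08e-10) and Vip by 1.97 ± 0.540 (adjusted p = 0.00511), and 1 was called lower (2.96%), Gal by -1.71 ± 0.362. The Vip and Gal calls were lost in limma on log2(TPM + 0.1), at 1.82 and -1.68.

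PVH had 1 gene called higher (1.56% of all genes), Vipr2 (1.95 ± 0.371, adjusted p = 1.88e-04). It had 2 called lower (0.711% of all genes), Nts (-2.06 ± 0.356) and Adcyap1 (-1.29 ± 0.291), the latter not called without PVH replicate 1. The PVH libraries differed in the markers Oxt, Avp and Sim1. These were at 454, 221 and 2.13 TPM in replicate 1, and at 2075, 1069 and 5.79 TPM in replicate 2. The part of that difference in the PVH calls was not tested. DMH had 1 gene called higher (0.721% of all genes), Vipr2 (1.20 ± 0.322, adjusted p = 0.0327), and 7 of the 69 single libraries each ended that call when left out. It was also lost in the fit with a replicate block and in limma on log2(TPM + 0.5), where the value was 0.84. Within single collection batches the difference in mean log2(TPM + 0.5) was positive in 3 of 4 batches and ran from -0.57 to 1.91. The -0.57 came from 1 DMH library against 2 others, of LHA and PVH, with none of ARH or VMH. Ntsr1, Ntsr2, Galr1 and Adcyap1r1 were not called in any nucleus.

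In the cortex, 1 of the 9 genes was called higher (8.02% of all genes were) and 3 lower (7.83%). Vip was higher by 5.08 ± 0.177 (9 cortical libraries against 48, adjusted p = 4.17e-33). Gal (-4.89 ± 0.570), Galr1 (-4.50 ± 0.381) and Nts (-2.57 ± 0.267) were lower. The Galr1 value was -5.58 without ACA replicate 1 and -1.78 in limma on log2(TPM + 0.5), both called. Vipr2 was not called, at -0.50 ± 0.280. For Nts and Adcyap1 the entorhinal libraries lay apart from those of ACA and FRP.

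In the nucleus accumbens, 2 genes were called higher (7.37% of all genes), Nts by 2.28 ± 0.200 (adjusted p = 1.83e-14) and Vip by 1.96 ± 0.324 (adjusted p = 9.86e-07). There, 3 genes were called lower (5.41%): Adcyap1 by -4.90 ± 0.376 (adjusted p = 2.06e-16), Gal by -2.97 ± 0.791 and Vipr2 by -2.87 ± 0.560. Within collection batches the Vip difference in mean log2(TPM + 0.5) was positive in 2 of 3 and ran from -0.07 to 1.74. The Gal value ranged from -3.82 without ACB replicate 1 to -2.39 without ACB replicate 2. Adcyap1r1 was not called in ACB (-0.02 ± 0.152), with 87.9, 73.3 and 84.1 TPM beside the low ligand level.

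In the ventral tegmental area, 1 gene was called higher (6.76% of all genes), Ntsr1, by 4.53 ± 0.150 (3 libraries against 54, adjusted p = 1.51e-31). The dopaminergic markers Th and Slc6a3 were lowest in the same library as Ntsr1, replicate 1, at 239 and 173 TPM, and Ntsr1 was called without that library too. Gal, at 1.5, 1.44 and 1.45 TPM, was not called (-1.53 ± 0.657, adjusted p = 0.0560). Over all genes 1351 were called higher in VTA and 691 lower, against 347 and 1899 of 19820 in limma on log2(TPM + 0.5), where the median gene was shifted by -0.404.

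The hindbrain nuclei had 5 genes called higher (4.99% of all genes) and 1 lower (2.65%). Gal was higher by 2.21 ± 0.263, Galr1 by 1.69 ± 0.181, Vip by 1.6 ± 0.358, Nts by 1.25 ± 0.153 and Adcyap1 by 1.06 ± 0.118, and Vipr2 was lower by -1.05 ± 0.261. In limma on log2(TPM + 0.5) the values of Galr1, Adcyap1 and Vipr2 were 0.68, 0.97 and -0.77 and none of these 3 was called, and in edgeR Vipr2 lost its call when any of 4 libraries was left out (DVC replicate 2 or 3, solitary tract nucleus replicate 1, PB replicate 1). Between the hindbrain nuclei, 1 gene was called lower in PB than in the caudal nuclei (0.906% of all genes), Vip, by -4.30 ± 0.546 (adjusted p = 3.87e-08), where PB had 0.267, 0.851 and 1.15 TPM and no caudal library had less than 6.88 TPM. Gal in PB had 25.0, 23.1 and 48.1 TPM and was not called against the caudal nuclei, among which DVC (64.1, 27.6 and 25.7 TPM) and the solitary tract nucleus (4.22, 11, 7.71 and 5.56 TPM) did not overlap.

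The cerebellum had 1 gene called higher (7.18% of all genes), Vipr2, by 1.61 ± 0.183 (18 libraries against 39, adjusted p = 5.10e-11). It had 6 called lower (8.52%). Ntsr1 was lower by -5.20 ± 0.191 (adjusted p = 1.08e-30), Vip by -3.31 ± 0.369, Gal by -2.16 ± 0.495, Nts by -2.04 ± 0.231, Adcyap1 by -1.72 ± 0.122 and Galr1 by -1.56 ± 0.475. The Galr1 call was lost without ACA replicate 1 or FRP replicate 2. Ntsr2 and Adcyap1r1 were not called there.

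The cerebellar nuclei differed from the cerebellar cortex, with 4 genes called higher (11% of all genes) and 1 lower (5.80%). Over all genes 2189 were called higher and 1159 lower, against 1014 and 1300 of 19820 in limma on log2(TPM + 0.5), where the median gene was shifted by -0.112. Choroid plexus genes moved with CBN: Ttr, Folr1 and Kl summed to 3495 to 12520 TPM there, against 0.984 to 17.4 TPM in CENT2 and CUL4-5, 2.43 to 2074 TPM in UVU and 33.2 to 3021 TPM in FL. Their part in the results was not tested. Nts was higher by 2.66 ± 0.296 (adjusted p = 4.87e-11), with 15.1, 9.61 and 6.66 TPM. Ntsr1 was higher by 2.60 ± 0.499 from low levels of 0.937, 0.807 and 0.491 TPM, and the value was 0.81 and not called in limma on log2(TPM + 0.5), and 3.18 without UVU replicate 1. Ntsr2 was at the limit (1.02 ± 0.0907) and lost its call without CBN replicate 2, CBN replicate 3 or UVU replicate 3, and in limma at 0.85. Vipr2 was lower by -2.69 ± 0.431, with 1.31, 1.14 and 0.836 TPM.

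Gal was higher in CBN by 4.20 ± 0.457 (adjusted p = 8.07e-12), but its libraries were far apart, at 2.22, 37.7 and 17.3 TPM. Dbh, the enzyme that makes noradrenaline, was at 2.32, 114 and 57.5 TPM in the same libraries, and the noradrenaline transporter gene Slc6a2 at 1.69, 50.8 and 26.4 TPM. These genes mark the locus coeruleus, which lies near the parabrachial nucleus and in mouse contains galanin neurons. The ratio of Gal to Dbh was 0.331 and 0.301 in CBN replicates 2 and 3, and 0.281, 0.249 and 0.296 in PB. In CBN replicate 1 the ratio was 0.960, and in DVC it was 2.90 or more. Without CBN replicate 2 the log2 fold change of Gal was 3.26 and called. Within collection batches, which hold 1 CBN library each, the Gal difference in mean log2(TPM + 0.5) was positive in 2 of 3 and ran from -0.16 to 5.02. The part of such cells in the Gal levels of PB and CBN was not tested.

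**Figure D4:**
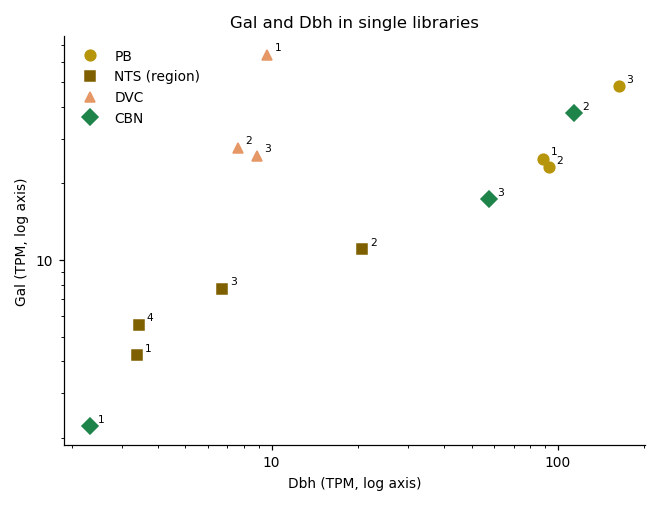
Gal against Dbh in TPM on log axes for each library of PB, the solitary tract nucleus, DVC and CBN, numbered by replicate. CBN replicates 2 and 3 lie with the PB libraries at Dbh of 57.5 TPM or more, and the DVC libraries have Gal of 25.7 TPM or more at Dbh of 9.63 TPM or less.

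Over the 18 adult regions, ligand and receptor maps were alike for Gal and Galr1 and not for Vip and Vipr2, as a description with no test. The mean log2(TPM + 0.5) of Gal and Galr1 had a Pearson r of 0.89 (Spearman 0.85), Nts and Ntsr1 0.62 (0.64), Nts and Ntsr2 0.74 (0.67), Adcyap1 and Adcyap1r1 0.58 (0.68), and Vip and Vipr2 -0.39 (-0.40). With the other VIP receptor gene, Vipr1, the r of Vip was 0.59 (0.34). Gal was as much alike Adcyap1r1 (0.90) as Galr1. Regions with high Vip differed in Vipr2. Its mean was 0.540 TPM in ACA, 0.985 TPM in the solitary tract nucleus and 1.25 TPM in ENT. It was 2.57 TPM in DVC, and 6.84 TPM in FRP, where Vip averaged 36.5 TPM.

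**Figure D5:**
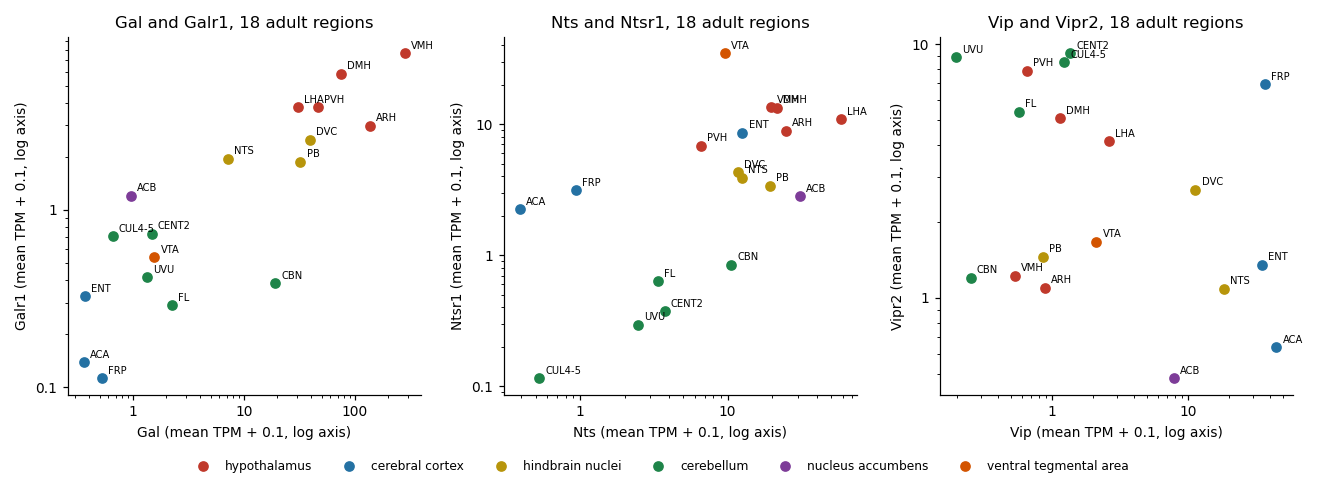
Mean TPM of a ligand gene against that of its receptor gene in each of the 18 adult regions, on log axes after adding 0.1. Gal and Galr1 are both highest in VMH, a place that both lose without VMH replicate 2. Ntsr1 is highest in VTA at 34.5 TPM while Nts is highest in LHA, and Vipr2 is highest in cerebellar regions where Vip is 1.26 TPM or less.

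In the embryonic hypothalamus, 8 of the 9 genes were called lower than in the adult nuclei (20.1% of all genes were lower). Stage and preparation batch cannot be told apart, since adult and embryonic tissue were collected in separate batches. Ntsr2 had the largest difference (-8.76 ± 0.203, adjusted p = 1.16e-37): THy-PHy had 0.251, 0.411 and 0.110 TPM, and no adult hypothalamic library had less than 164 TPM. Gal (4.66, 5.25 and 16.0 TPM) was lower by -3.18 ± 0.426, and by -4.03 without THy-PHy replicate 3. The others were Galr1 (-2.77 ± 0.316), Nts (-2.73 ± 0.332), Adcyap1r1 (-2.72 ± 0.200), Adcyap1 (-2.15 ± 0.263), Vipr2 (-1.64 ± 0.464) and Ntsr1 (-1.22 ± 0.244). Vip was at 0.479 TPM or less in THy-PHy and was not called (adjusted p = 0.0525 in edgeR). The astrocyte markers summed to 125 to 149 TPM in THy-PHy and 555 to 767 TPM in the adult nuclei, but were not alike. In THy-PHy the means of Gja1, Slc1a3 and Aldh1l1 were 78.6, 45.3 and 9.70 TPM. Aqp4 and Gfap were nearly absent there, at 0.747 and 0.0536 TPM, against means of at least 37.5 and 61.8 TPM in the adult nuclei.

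Among embryonic regions, 2 genes were called higher in THy-PHy than in M and H (1.72% of all genes). Ntsr1 had 4.82, 4.31 and 3.83 TPM, higher by 2.50 ± 0.320 (adjusted p = 3.49e-08) than in M (1.09 and 0.548 TPM) and H (0.634, 0.769 and 1.13 TPM), with no overlap. Gal was higher by 2.72 ± 0.679 (adjusted p = 0.00376), but not called at 1.84 without THy-PHy replicate 3. Nts had 20.7 and 10.8 TPM in M and 8.88 TPM in F, above THy-PHy with 2.93, 3.07 and 3.09 TPM, yet as H had 1.61 TPM or less it was not called against both. Adcyap1r1 had the highest embryonic levels of the members, with 48.6 and 51.3 TPM in M and 10.5, 31.1 and 53.1 TPM in H. The lowest H value was that of replicate 1, which had the lowest total count of the series and 22.6% mitochondrial TPM.

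In mESC, 8 of the 9 genes were called lower than in the embryonic brain (28.7% of all genes were lower). Batch, stage and culture, with its added inhibitors, cannot be told apart from cell type. Ntsr2 and Vipr2 were listed at 0 in all 4 libraries. Adcyap1r1 had 0.672, 0.736, 0.592 and 0.584 TPM and was lower by -5.64 ± 0.241, and Adcyap1, with 9 estimated counts in all, was lower by -5.83 ± 0.506. Gal, Galr1, Nts and Ntsr1 had 4, 1, 2 and 3 estimated counts over the 4 libraries, so no fold is given. The Gal call was lost without B6-1 replicate 2 or B6-2 replicate 2, and those of Galr1 and Ntsr2 were lost in limma on log2(TPM + 0.5). Vip had 2 estimated counts in mESC and was not called.

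The rest of the 3 systems was followed through 16 further genes, of which 13 could be tested. In the hypothalamus 3 were called higher (Ghrh by 5.62 ± 0.237, Galr3 by 3.03 ± 0.389 and Sctr by 1.51 ± 0.194) and 2 lower (Vipr1 by -2.36 ± 0.147 and Sorl1 by -1.33 ± 0.0427), beside the 5.98% and 2.69% of all genes. Ghrh encodes growth hormone-releasing hormone, a relative of PACAP, and was also called higher in ARH than in the other nuclei (2.82 ± 0.204). In the cortex 4 were called higher and none of the 13 lower, beside 8.02% and 7.83% of all genes. Vipr1, the VPAC1 receptor, was higher there by 4.21 ± 0.0934, with means of 16.2, 13.1 and 11.5 TPM in ACA, FRP and ENT, and in ACB by 3.27 ± 0.134 (mean 11.4 TPM). Sort1, the sorting receptor sortilin that also binds neurotensin, was higher in the cortex by 1.36 ± 0.0378.

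Among the remaining comparisons, Spx, which encodes spexin, a ligand of galanin receptors 2 and 3, was higher in PB than in the caudal nuclei by 3.13 ± 0.245, with a mean of 34.4 TPM. Mme, the neprilysin gene, an enzyme that degrades neuropeptides, was higher in ACB by 2.07 ± 0.255 and in mESC by 3.73 ± 0.339. Galr2 was called in mESC alone of the 16 comparisons, lower by -1.34 ± 0.331. Galp, Sct and Ghrhr were too low to test.

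Transcripts of Ntsr2 and Adcyap1r1 were estimated separately. Ntsr2-201 held 71.0% of the Ntsr2 TPM in adult libraries and Ntsr2-205 21.6%, the latter ranging from 16.1% in VTA to 30.9% in ACA. Adcyap1r1-202 held 86.6% of its gene, between 79.3% in VTA and 90.2% in FL, and Adcyap1r1-201 held 7.41%. Short single reads limit how well such transcripts are told apart, and no test was made.

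The genes whose adult maps were most alike those of the members were found among 17955 genes by Pearson r over the 18 regions. For Gal they were Armcx6 (r = 0.974), Nynrin (0.970) and Heyl (0.968), and for Galr1 Fam120b (0.952), Impad1 (0.950) and Gprasp2 (0.944). For Nts they were Klhl13 (0.888), Rps24 (0.877) and AC165954.1 (0.870), and for Ntsr1 Gm21949 (0.932), Ranbp1 (0.921) and Glra3 (0.911). Ntsr2 was most alike Heph (0.965), Cldn10 (0.958) and Nkx6-2 (0.948), and Adcyap1r1 was most alike Pomgnt2 (0.975), Rgag4 (0.966) and Best1 (0.965). Adcyap1 was most alike Dtx4 (0.895), Rab2b (0.879) and Gtf2b (0.865). Vip was most alike Tnfrsf25 (0.878), Robo2 (0.870) and Fam163b (0.868), and Vipr2 Fxyd3 (0.883), Gm9043 (0.872) and Grid2ip (0.867), a gene of Purkinje cell synapses.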

How the data were processed

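The authors converted raw data to FASTQ with CASAVA 1.8.2 and quantified short single reads against Ensembl cDNA of GRCm38 with kallisto, tools also named in the submitters' processing notes. The authors deposited estimated counts per transcript, and TPM per transcript and per gene. Transcripts were matched to genes here with GENCODE mouse release 21 (GRCm38), which left 0.418% to 0.767% of each library's counts unmatched and out of the tests. The matched estimated counts of a gene were added up, then rounded to whole numbers. The 9 genes, the gene lists and the markers were chosen with earlier results of these data known.

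Differences were tested with edgeR 4.0.16 in R 4.3.3 (quasi-likelihood test, TMM factors, Benjamini-Hochberg adjustment over 19980 genes) in 1 fit of all 70 libraries with a term per group. Calls needed an adjusted p below 0.05 together with a log2 fold change larger than 1 in either direction. Alternatives were DESeq2 1.42.0, its size factors in edgeR, no filter on low counts, no mESC libraries, a replicate block, limma 3.58.1 on log2 TPM with pseudocounts of 0.5 and 0.1, and each library left out in turn. A batch term and 2 sets of left-out libraries were chosen after seeing the data. Genes were named as members, as called genes of the fixed pathway list, and as the 3 most alike per member by Pearson r on log2(TPM + 0.5), among genes that reached 1 TPM. Tables and plots were made with Python 3.11.15.

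On simulated counts with 200 genes changed 4-fold, 182 of the 182 tested were called in the hypothalamus comparison (18011 genes), and 167 of 190 in the VMH comparison (18017 genes), where 10 unchanged genes were called too. Before the change, a simulated gene had the same mean in all groups, and all genes had the same fixed spread. Real groups differ and real spreads vary by gene, so these shares check the fit and do not measure its power on the real data. The median total count was 17016935. Replicate numbers do not pair libraries: the median correlation of same-numbered libraries was 0.00804. Collection batches are listed by the study per region. A batch was given to 66 libraries by matching that list to the serial numbers in the labels, whose runs do not overlap between batches, and is not stated per library. The median correlation of adult libraries of 1 batch was 0.0292, over 357 pairs, of which 36 were above 0.1. For pairs of different batches the median was -0.00938.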

Additional observations from a re-analysis of the deposited data

Results flagged for a closer look

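Among the 5 groups of 4 libraries, 45 sets of values were looked at, and 5 had 1 library far from the other 3. Chance flags about 1 in 20 groups where values are normally distributed, which TPM need not be. Nts in CENT2 replicate 1 was 9.35 TPM, where the others had 1.03 to 2.29 TPM. Adcyap1 in the same library was 9.09 TPM, where the others had 3.89 to 4.48 TPM. Adcyap1 in FL replicate 1 was 15.7 TPM, where the others had 6.82 to 7.12 TPM. Vipr2 in FL replicate 3 was 7.01 TPM, where the others had 4.65 to 4.79 TPM. Ntsr1 in CUL4-5 replicate 2 was 0.0600 TPM, where the others were at 0. With the others at 0 any value above 0 is flagged, so this flag carries no information.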

How the results depend on the processing

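Of 63 pairs of gene and comparison that were called, 51 were called in each of the other fits listed in the methods (the batch term and sets of left-out libraries aside) and 47 also with each of 69 libraries left out, and 0 reversed. In the VTA the number of members called was 1, and 2 in DESeq2, in limma with either pseudocount and without a filter (Gal being added, lower). It was 3 without the VMH libraries, and 1 to 3 with 1 library left out. In the hindbrain nuclei it was 6, and 3 in limma on log2(TPM + 0.5) with or without a filter. In the cerebellar nuclei it was 5, and 3 in the same limma fits and without CBN libraries 2 and 3. In the embryonic hypothalamus against midbrain and hindbrain it was 2, and 1 to 2 with 1 library left out. Over the hypothalamic nuclei it was 10, and 6 in limma on log2(TPM + 0.1). With a replicate block it was 9, as Vipr2 in DMH (1.20) was not called, and the block changed no other call. A batch term, fitted within adult and within embryonic tissue, ended none of 47 calls and added Galr1 in VMH. Within batches, 44 of 47 called differences had 1 direction in every batch. That count includes small differences. Gal in VMH was 0.03 in 1 of 2 batches and 3.34 in the other, and Adcyap1 in ARH ran from 0.07 to 1.34. Batches held different regions of a comparison, so values within batches compare different sets of regions. The 0.03 and 0.07 came from a batch with ARH, DMH and VMH alone among the hypothalamic nuclei. The batch term and the left-out sets of libraries were chosen after seeing the data. CBN libraries 2 and 3 are also those with high Gal, and leaving them out keeps 1 CBN library, so that value (Gal 1.06, not called) supports nothing. Splits of all calls moved by over 10 percentage points in limma also for LHA (262 higher and 508 lower, from 473 and 592), VMH (98 and 115), DMH (60 and 45, from 144 and 38) and mESC (3776 and 5975, from 5484 and 5739), and with a pseudocount of 0.1 for the cortex (1227 and 1764, from 1602 and 1564) and hindbrain nuclei (751 and 615, from 997 and 530). The median gene was shifted by -0.116 in LHA and -0.229 in mESC in limma with 0.5, by -0.113 in the cortex with 0.1, and by 0.145 in mESC in DESeq2. The mESC comparison has no value without the mESC libraries. Low counts limit Galr1 in the cortex, Ntsr1 in the cerebellum and all members but Adcyap1r1 in mESC.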
